A study of Mus musculus with 27 samples.

Results

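Cdh17, Inava, Mep1a, Krt20, Akr1c18, Cyp21a1, Cacna1b, Lrtm2, Usp43 and Tpsab1 are 10 of the 55414 genes counted in these mouse livers. All except Usp43, for which no usual tissue is given here, have their usual sites of expression outside the liver. The 10 genes were chosen from the values of 2 groups, because they were nearly silent in the control mice and strongly raised in the mice given CCl4 alone. These values are therefore given below as a description without a test. The tests rest on the 6 groups that the choice did not use. All 10 genes entered these tests only through the reads of CCl4-treated libraries (below). In the 13 mice that received no CCl4, 95 of the 130 values of these genes were 0 counts and the highest was 4 counts. In the 14 mice that received CCl4, every gene had reads in every library.

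RNA was taken from whole livers of 27 female Balb/c mice that were 8 weeks old, in 8 groups. The 4 control mice received olive oil into the abdomen and PBS into the tail vein, 3 mice received olive oil and 4MU (4-methylumbelliferone, which lowers the synthesis of hyaluronan) by gavage, 3 received olive oil and siLuc-LNP (lipid nanoparticles with an siRNA against luciferase, a gene mice do not have), and 3 received olive oil and siHAS2-LNP (nanoparticles with an siRNA against hyaluronan synthase 2). CCl4 was injected into the abdomen for 2 weeks in 2 mice without another treatment, in 4 with 4MU, in 4 with siLuc-LNP and in 4 with siHAS2-LNP. The daily dose of 4MU was 600 mg/kg, the siRNA was given 2 times a week at 1 mg/kg and later at 0.5 mg/kg, and both began 2 days before the first CCl4. CCl4 is made toxic by the enzyme Cyp2e1 in hepatocytes, and repeated doses are a standard model of liver fibrosis. A polyA library from whole liver holds RNA of all its cells, and the cells that carried the transcripts below were not separated.

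Libraries held 7044386 to 29425937 counts (median 22109517), and 26 of the 27 held at least 18146198. The shallow library was CCl4+siHAS2-LNP mouse 4, in which several of the genes rest on fewer than 10 reads. The limit of 3 counts lay between 0.104 and 0.400 CPM (counts of a gene per 1000000 counts of its library). The label of liver held in all groups, since 10 hepatocyte genes summed to between 84410 and 216800 CPM in every library. Has2 itself, the target of the siRNA, had 0 counts in 25 libraries and at most 2 in the others, so the knockdown could not be checked at this depth.

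As background, 4 of these genes belong to the epithelium of the gut: Cdh17 is a cadherin that holds intestinal cells together, Inava acts at epithelial junctions and in innate immune signalling, Mep1a is a subunit of meprin, a metalloprotease of the brush border, and Krt20 is a keratin of mature gut epithelium. Akr1c18 and Cyp21a1 are enzymes of steroid metabolism, the former breaking down progesterone in the ovary and the latter making corticosteroids in the adrenal cortex. Cacna1b forms the pore of a calcium channel of nerve endings, and Lrtm2 is a membrane protein with leucine-rich repeats. Usp43 is a deubiquitinase, and Tpsab1 is a tryptase of mast cells. Expression of gut genes in epithelium is known to depend on CDX transcription factors, and that of steroid enzymes in adrenal cortex on the nuclear receptor SF-1.

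The promoters of Cdh17, Krt20, Akr1c18 and Cyp21a1 are shown because these 4 genes varied together from mouse to mouse (below). They are the bases before the annotated start of each gene's canonical (reference) transcript in the GRCm39 genome with GENCODE vM39, written in the direction of transcription. They lie at chr4:11757897-11758146 (plus strand), chr11:99328986-99329235 (minus), chr13:4200673-4200922 (minus) and chr17:35023681-35023899 (minus). The first 3 hold the 250 bases before the start, and that of Cyp21a1 holds 219 bases because the 31 bases nearest to the start are an exon of another transcript. The Cyp21a1 window lies inside the annotated gene, whose outermost start is at 35024036. Capitals mark matches, on either strand, to any of the motifs searched.
Cdh17: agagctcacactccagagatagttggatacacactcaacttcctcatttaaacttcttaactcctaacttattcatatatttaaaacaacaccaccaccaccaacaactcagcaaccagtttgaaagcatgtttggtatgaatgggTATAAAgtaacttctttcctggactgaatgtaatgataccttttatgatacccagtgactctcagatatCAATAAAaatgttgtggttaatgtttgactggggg
Krt20: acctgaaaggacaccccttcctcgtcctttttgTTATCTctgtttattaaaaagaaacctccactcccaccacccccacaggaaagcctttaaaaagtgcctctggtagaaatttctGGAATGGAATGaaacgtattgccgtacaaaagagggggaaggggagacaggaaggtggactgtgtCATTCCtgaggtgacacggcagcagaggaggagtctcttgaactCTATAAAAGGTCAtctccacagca
Akr1c18: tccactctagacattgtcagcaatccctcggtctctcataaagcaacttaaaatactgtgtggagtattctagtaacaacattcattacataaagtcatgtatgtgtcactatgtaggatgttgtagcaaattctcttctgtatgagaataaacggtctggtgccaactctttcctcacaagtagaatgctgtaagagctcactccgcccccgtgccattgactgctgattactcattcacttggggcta
Cyp21a1: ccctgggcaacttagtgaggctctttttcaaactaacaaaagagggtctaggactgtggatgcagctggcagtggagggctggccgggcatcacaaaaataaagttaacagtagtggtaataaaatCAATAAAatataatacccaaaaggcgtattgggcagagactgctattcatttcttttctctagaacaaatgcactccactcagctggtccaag

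Short forms of 8 motifs were searched on both strands. Among them the TATA box was spelled TATAAA. The form searched for AP-1, a factor of stress responses, was TGANTCA. For TEAD, the partner of Yap, it was GGAATG. For the GATA family of factors it was AGATAA. For CDX it was TTTATNG. HNF4, a nuclear receptor of hepatocytes, was searched as CAAAGTCCA. SF-1 was searched as AAGGTCA. The xenobiotic response element, the site of the Ah receptor, was searched as GCGTG. The CDX form stood 35 bases before the start of Cdh17, 24 bases before that of Krt20 and 124 bases before that of Cyp21a1, so in 3 of the 10 promoters, against 9.57% of 21627 promoters of the same length. In Krt20 this match shares bases with a TATA box 23 bases and an SF-1 form 18 bases before the start. The TATA box was in 2 of the 10 (11.9% of all promoters), the TEAD form in 3 (12.1%), the GATA form in 2 (9.64%), and the AP-1 form in 1, Tpsab1 (6.19%). The SF-1 form was in 1 (3.88%), the xenobiotic response element in 3 (31.2%), and the HNF4 form in 0 (0.375%). Akr1c18 held none of these motifs in its window. The windows of Cyp21a1 and Inava lie inside their annotated genes, and that of Usp43 does so in part, because these genes extend beyond the start of the canonical transcript. A match is a description of letters, and binding was not measured.

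Every gene passed the filter of a mean of 10 counts over all 27 libraries, but each passed only through the CCl4-treated libraries, so a count of genes that differ between mice with and without CCl4 supports nothing by itself. In the 12 CCl4-treated mice outside the choice (4MU, siLuc-LNP and siHAS2-LNP with CCl4), the reads of all 10 were more frequent than in the 9 mice given the same 3 treatments without CCl4. Adjusted p (quasi-likelihood test of edgeR, Benjamini-Hochberg over 14114 genes) ran from 2.68e-10 for Akr1c18 to 8.43e-07 for Lrtm2. Of all tested genes 21.8% were called higher in that comparison. The CPM of all 12 lay above that of all 9 for the 10 genes, which held for 3.69% of all tested genes. Folds below are ratios of the reads summed over the mice per unit of library size, and their 95% exact intervals cover counting error only, not the spread between mice. Where a group had no read, the fold is a lower bound against 3 counts over that group.

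**Figure D1:**
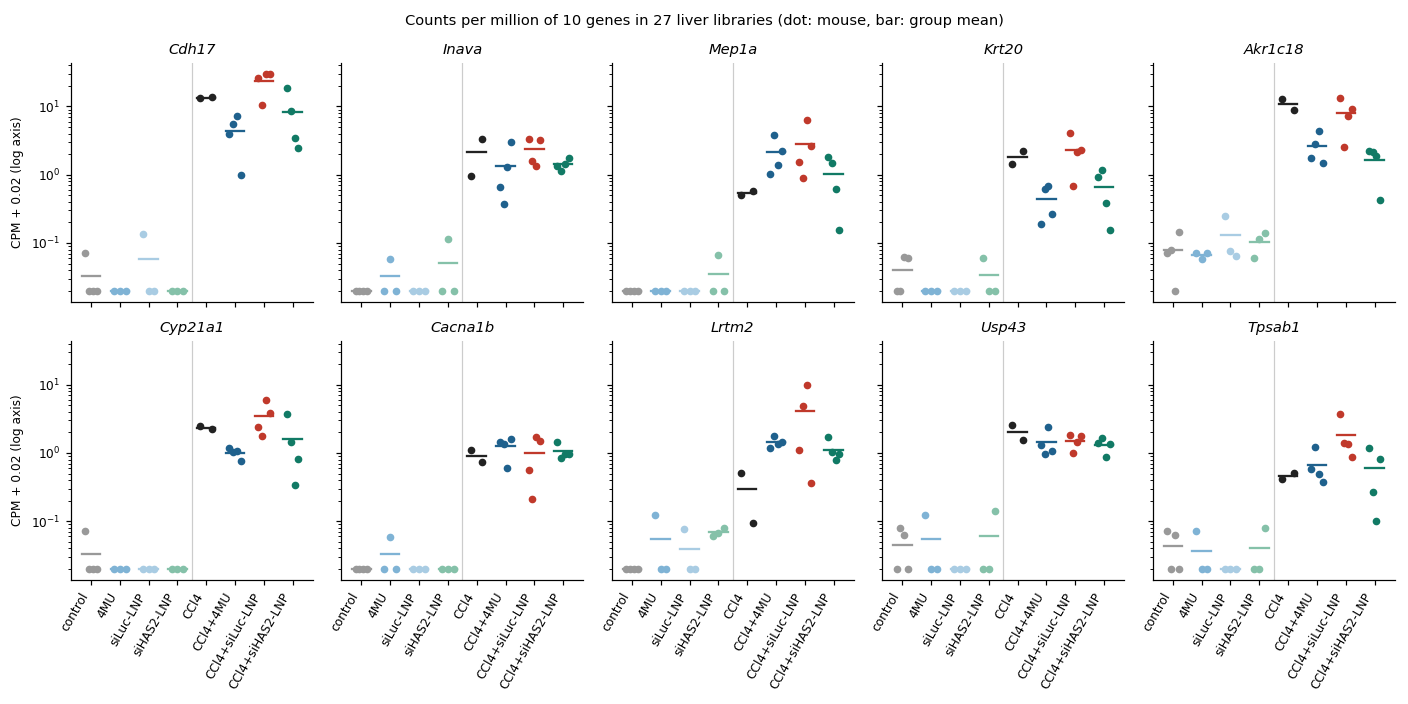
CPM (log axis, 0.02 added) of the 10 genes in each of the 27 liver libraries, by group, with dots for mice and bars for group means. Dots left of the grey line are the 13 mice without CCl4, of which most lie at 0, and dots right of it are the 14 mice with CCl4.

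Cdh17 (ENSMUSG00000028217, chr4:11758147-11817895, plus strand, 18 exons) was the most abundant of the 10. It had 0 counts in 11 of the 13 mice without CCl4 and at most 2 in the others. The CCl4 mice had 13.2 and 13.6 CPM, the CCl4+siLuc-LNP mice 26.0, 10.3, 29.3 and 29.9. With 4MU the level was 3.95, 5.58, 7.13 and 0.960 CPM, and with siHAS2-LNP it was 18.6, 8.68, 3.41 and 2.4. All 4 mice of the 4MU group thus lay below all 4 of the siLuc-LNP group, and the siHAS2-LNP mice overlapped with both. The share of all genes that separated treated groups in this way was not counted, here or for the genes below. The CCl4 group held 1137-fold more reads than control (interval 203 to 44986), and in the mice outside the choice the fold was 1173 (324 to 9689; edgeR adjusted p = 1.71e-09).

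Inava (ENSMUSG00000041605, chr1:136141260-136162265, minus strand, 10 exons) was lower and more even. Without CCl4 it had 0 counts in 11 of 13 mice and at most 2. It stood at 0.924 and 3.35 CPM in the CCl4 mice, 0.645, 0.349, 1.26 and 2.99 with 4MU, 3.37, 1.54, 1.32 and 3.19 with siLuc-LNP, and 1.33, 1.12, 1.40 and 1.73 with siHAS2-LNP. The CCl4-treated groups overlapped throughout. The fold was at least 64.6 for CCl4 against control, and 109 in the mice outside the choice (37.2 to 532; adjusted p = 1.15e-07, edgeR). A noncoding gene on the opposite strand, Gm26568, shares 1653 exon bases with it and had 0 counts in the table, and another, Gm71179, shares 237 and was not in the table.

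Mep1a (ENSMUSG00000023914, chr17:43785215-43813703, minus strand, 14 exons) had 1 count in all 13 mice without CCl4 together. Its levels were 0.486 and 0.565 CPM in the CCl4 mice, 0.989, 3.79, 1.37 and 2.24 with 4MU, 1.53, 0.886, 6.24 and 2.63 with siLuc-LNP, and 1.80, 1.46, 0.601 and 0.133 with siHAS2-LNP. Here the CCl4 mice were among the lower ones: all 8 mice of the 4MU and siLuc-LNP groups lay above both. The fold was at least 14.9 for CCl4 against control and 361 in the mice outside the choice (64.5 to 14275; edgeR adjusted p = 4.21e-07). Mep1b, the gene of the other meprin subunit, reached at most 19 counts in any library and was not tested, with mean levels of 0 to 0.0380 CPM in the groups without CCl4 and 0.234 to 0.436 CPM in those with it.

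Krt20 (ENSMUSG00000035775, chr11:99319227-99328985, minus strand, 8 exons) had single counts in 3 of the 13 mice without CCl4. It reached 1.41 and 2.18 CPM in the CCl4 mice and 3.99, 0.655, 2.16 and 2.25 with siLuc-LNP. It was 0.172, 0.598, 0.665 and 0.249 CPM with 4MU, and 0.899, 1.17, 0.361 and 0.133 with siHAS2-LNP. The pattern was like that of Cdh17, with 4MU lowest, although siLuc-LNP mouse 2 fell among the 4MU mice. The CCl4 group held 78.0-fold more reads than control (21.0 to 654). In the mice outside the choice the fold was 215 (38.4 to 8528; edgeR adjusted p = 2.39e-07).

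Akr1c18 (ENSMUSG00000021214, chr13:4182614-4200672, minus strand, 9 exons) was the gene of the 10 that was least silent at rest: 12 of the 13 mice without CCl4 had at least 1 count, and the highest had 4. It reached 12.6 and 8.84 CPM in the CCl4 mice, 13.4, 2.54, 7.14 and 9.07 with siLuc-LNP, 1.72, 2.79, 4.32 and 1.46 with 4MU, and 2.19, 2.15, 1.84 and 0.400 with siHAS2-LNP. All siHAS2-LNP mice lay below all siLuc-LNP mice. The CCl4 group held 178-fold more reads than control (75.6 to 549), and the fold was 57.6 in the mice outside the choice (34.2 to 106; edgeR adjusted p = 2.68e-10). Per kilobase of transcript it had the highest level of the 10 in the CCl4 group, 8.76 CPM per kb against 3.88 for Cdh17, the next.

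Cyp21a1 (ENSMUSG00000024365, chr17:35018835-35024036, minus strand, 10 exons) had 1 count in 1 control mouse and 0 in the other 12 mice without CCl4. It stood at 2.43 and 2.22 CPM in the CCl4 mice, 1.16, 0.996, 1.03 and 0.747 with 4MU, 2.39, 1.73, 6.0 and 3.77 with siLuc-LNP, and 3.71, 1.41, 0.321 and 0.800 with siHAS2-LNP. The 4MU mice again lay below all the siLuc-LNP mice. The CCl4 group held 196-fold more reads than control (34.4 to 7792). In the mice outside the choice the fold was at least 124 (edgeR adjusted p = 4.79e-08). A nearly identical pseudogene, Cyp21a2-ps, was measured at 1.19 to 3.16 CPM as group means and was called in none of the 3 comparisons of CCl4 within a treatment, and reads that fit both copies were not counted. Tnxa, on the opposite strand, shares 940 exon bases with Cyp21a1 and had at most 2 counts.

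Cacna1b (ENSMUSG00000004113, chr2:24493899-24653221, minus strand, 46 exons) had 1 count in all 13 mice without CCl4 together. It stood at 1.07 and 0.715 CPM in the CCl4 mice, 1.42, 1.35, 0.591 and 1.60 with 4MU, 0.548, 0.193, 1.68 and 1.45 with siLuc-LNP, and 1.41, 0.83, 0.962 and 0.934 with siHAS2-LNP. The groups with CCl4 overlapped, and here siLuc-LNP held both the lowest and the highest mouse. The fold was at least 24.5 for CCl4 against control and 199 in the mice outside the choice (35.4 to 7886; edgeR adjusted p = 1.51e-07). With its long transcript, it had the second lowest level per kilobase in the CCl4 group, 0.0911 CPM per kb.

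Lrtm2 (ENSMUSG00000055003, chr6:119292094-119307778, minus strand, 5 exons) was the most variable of the 10. It had at most 2 counts in each of the 13 mice without CCl4. It stood at 0.486 and 0.0753 CPM in the CCl4 mice, 1.16, 1.74, 1.33 and 1.42 with 4MU, 1.10, 4.82, 9.89 and 0.346 with siLuc-LNP, and 1.68, 1.02, 0.762 and 0.934 with siHAS2-LNP. The lower CCl4 mouse, with 2 counts, lay below the highest mouse without CCl4 (0.102 CPM), and it was the only value of a CCl4-treated library, over the 10 genes, that did not lie above all 13 mice without CCl4. The fold was at least 7.17 for CCl4 against control and 62.7 in the mice outside the choice (28.6 to 172; edgeR adjusted p = 8.43e-07). Lrtm2 lies inside Cacna2d4 on the other strand with 49 shared exon bases, and Cacna2d4 had at most 5 counts.

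Usp43 (ENSMUSG00000020905, chr11:67745349-67813082, minus strand, 15 exons) was the most even of the 10 among the CCl4-treated mice. It had 0 counts in 9 of the 13 mice without CCl4 and at most 2. It stood at 2.53 and 1.54 CPM in the CCl4 mice, 1.29, 0.946, 2.36 and 1.07 with 4MU, 1.80, 0.963, 1.44 and 1.77 with siLuc-LNP, and 1.37, 1.61, 0.842 and 1.33 with siHAS2-LNP. The highest of the 14 mice exceeded the lowest only 3.00-fold. The CCl4 group held 83.4-fold more reads than control (22.4 to 699), and the fold was 65.7 in the mice outside the choice (25.4 to 242; edgeR adjusted p = 1.38e-09). The noncoding gene 9130017K11Rik shares 712 exon bases with it on the other strand and had at most 11 counts.

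Tpsab1 (ENSMUSG00000024173, chr17:25562212-25564541, minus strand, 5 exons) had single counts in 4 of the 13 mice without CCl4. It stood at 0.389 and 0.489 CPM in the CCl4 mice, 0.559, 1.20, 0.480 and 0.356 with 4MU, 3.76, 1.39, 1.32 and 0.866 with siLuc-LNP, and 1.17, 0.244, 0.0802 and 0.800 with siHAS2-LNP. Like Mep1a and Lrtm2, it was low in the CCl4 mice, both of which lay below all 4 siLuc-LNP mice. The CCl4 group held 18.8-fold more reads than control (4.6 to 166), and the fold was 95.4 in the mice outside the choice (26.2 to 792; edgeR adjusted p = 5.6e-07). Its near copy Tpsb2 had at most 8 counts, and reads shared by the copies were not counted.

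The description of the choice itself was that the CPM of both CCl4 mice lay above that of all 4 control mice for all 10 genes, as it did for 25.7% of all tested genes. In the table, 37007 genes had at most 4 counts in each of the 13 libraries without CCl4. Only 33 of these reached a mean of 10 counts, the 10 genes among them, and in 23 of the 33 all 14 CCl4-treated mice lay above all 13 others. Of the other 23, 17 had a mean level over the 14 CCl4-treated mice within the range of the 10, of which 4 were at 0 in some CCl4-treated mouse and 13 were not. The highest, named after their values were seen, were Adgrg7 (3.40 CPM), Spink1 (3.27) and Muc17 (3.02). Adgrg7 and Muc17 were among those at 0 in some CCl4-treated mouse, whereas Spink1 had at least 1.21 CPM in each of the 14.

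Within each treatment, CCl4 was compared with the same treatment without it. With 4MU, all 10 genes were called higher (edgeR adjusted p from 1.18e-05 for Akr1c18 to 0.00344 for Tpsab1; 13.2% of all genes were called higher). The folds were at least 93.1 for Cdh17, 43.7 for Mep1a, 21.1 for Cyp21a1 and 9.0 for Krt20, and 55.8 for Akr1c18. With siLuc-LNP, all 10 were called higher (4.45e-07 for Akr1c18 to 0.000341 for Cacna1b by edgeR, adjusted; 13.0% of all genes). The folds there were 681 for Cdh17, 196 for Lrtm2 and 78.4 for Akr1c18, and at least 62.6 for Cyp21a1, 48.1 for Mep1a, 47.7 for Inava, 43.7 for Krt20, 35.6 for Tpsab1, 29.0 for Usp43 and 17.7 for Cacna1b.

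With siHAS2-LNP, all 10 were also called higher than without CCl4 (edgeR adjusted p from 4.16e-05 for Cdh17 to 0.0131 for Lrtm2; 7.74% of all genes). The fold was at least 201 for Cdh17, at least 36.8 for Cyp21a1 and at least 22.4 for Cacna1b. It was 73.5 for Mep1a, 45.6 for Krt20, 42.0 for Inava, 39.6 for Usp43, 34.4 for Tpsab1, 24.0 for Lrtm2 and 23.8 for Akr1c18. Lrtm2 and Tpsab1 were lost without siHAS2-LNP mouse 1 or mouse 2 (adjusted p 0.0577 to 0.0630), and Tpsab1 without CCl4+siHAS2-LNP mouse 1 (0.0587). Whether the response to CCl4 differed between treatments was tested as an interaction. None of the 10 passed by edgeR for siHAS2-LNP against siLuc-LNP (5 of all genes, 0.0354%) or for 4MU against siLuc-LNP (7 of all genes, 0.0496%), and 0 of the 10 had an unadjusted p under 0.05 in either, with edgeR (11.4% and 12.7% of all genes). Where a group without CCl4 had no reads at all, this difference is not determined. The siLuc-LNP mice had no reads of Inava, Mep1a, Krt20, Cyp21a1, Cacna1b, Usp43 and Tpsab1, and the 4MU and siHAS2-LNP mice had none of Cdh17. For these genes the lack of a call in either interaction shows nothing, also beside the shares of all genes. Only Akr1c18 and Lrtm2 had reads in each treated group without CCl4.

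The 3 treated groups were then compared directly. CCl4+siLuc-LNP had the highest mean of all 8 groups for 7 of the genes, namely Cdh17 (23.9 ± 9.21 CPM, SD, n = 4), Inava (2.35 ± 1.07), Mep1a (2.82 ± 2.39), Krt20 (2.26 ± 1.36), Cyp21a1 (3.47 ± 1.89), Lrtm2 (4.04 ± 4.37) and Tpsab1 (1.83 ± 1.30). Among the 3 treated groups it was also highest for Akr1c18 (8.03 CPM) and Usp43 (1.49), and CCl4+4MU was highest for Cacna1b (1.24). Beside these groups, CCl4 alone held 13.4 ± 0.284 CPM (SD, n = 2) of Cdh17, 10.7 ± 2.68 of Akr1c18 and 2.04 ± 0.696 of Usp43. Its means for the latter 2 were the highest of the 8. These values of CCl4 alone were part of the choice and are not tested.

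In fibrotic mice, 1 of the 10 genes was lower with siHAS2-LNP than with siLuc-LNP past the threshold (1.09% of all genes were called in either direction). Akr1c18 was 1.65 ± 0.844 CPM with siHAS2-LNP and 8.03 ± 4.50 with siLuc-LNP (log2 fold change -2.19, SE 0.428, edgeR adjusted p = 0.0258). The groups did not overlap, and the share of all genes for which this held was not counted. The call was lost without CCl4+siLuc-LNP mouse 1 (adjusted p = 0.0905), CCl4+siHAS2-LNP mouse 3 (0.14) or mouse 4 (0.063). The call was also lost with limma-voom (0.0821), with only these groups in the fit (0.15) and with the replicate block (0.0503). At an unadjusted p under 0.05, 7 of the 10 were lower, against 7.94% of all tested genes. Among those not past the adjusted threshold, the log2 fold change of Lrtm2 was -1.82 (95% interval -3.11 to -0.54, edgeR adjusted p = 0.157), of Tpsab1 -1.72 (-2.88 to -0.56, 0.139), of Krt20 -1.70 (-2.74 to -0.67, 0.113), of Cdh17 -1.49 (-2.49 to -0.48, 0.144) and of Cacna1b 0.14 (-0.85 to 1.12, 0.939). In bulk liver, fewer cells of a type and less RNA per cell cannot be told apart.

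With 4MU, 2 of the 10 were lower than with siLuc-LNP (0.623% of all genes were called in either direction). Cdh17 was 4.4 ± 2.64 CPM against 23.9 ± 9.21 (log2 fold change -2.44, SE 0.534, edgeR adjusted p = 0.0413). Krt20 was 0.421 ± 0.246 against 2.26 ± 1.36 (-2.42, SE 0.544, adjusted p = 0.0435). Both calls lie close to the threshold and were lost without CCl4+4MU mouse 1, 2 or 4 and without CCl4+siLuc-LNP mouse 1 or 4 (adjusted p from 0.0612 to 0.19). They were also lost with only these groups in the fit (0.229 and 0.243) and with the replicate block (0.0535 and 0.0793). Akr1c18 (-1.64, adjusted p = 0.0541) and Cyp21a1 (95% interval -2.84 to -0.77, adjusted p = 0.0868) came next, while Usp43 (-0.07, -0.88 to 0.74) and Cacna1b (0.38, -0.58 to 1.33) were near 0 by edgeR. Both of these comparisons use the same 4 siLuc-LNP mice. The 4MU mice received no nanoparticles. A lower level with 4MU and a higher level with siLuc-LNP therefore cannot be told apart, here or in the interaction above.

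Between 4MU and siHAS2-LNP, 0 of the 10 were called (edgeR, 1.22% of all genes called) and 0 had an unadjusted p under 0.05 (18.6% of all genes). The log2 fold changes ran from -0.95 for Cdh17 to 0.95 for Mep1a. Adjusted p ran from 0.331 to 0.977, which does not show that the levels are alike.

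**Figure D2:**
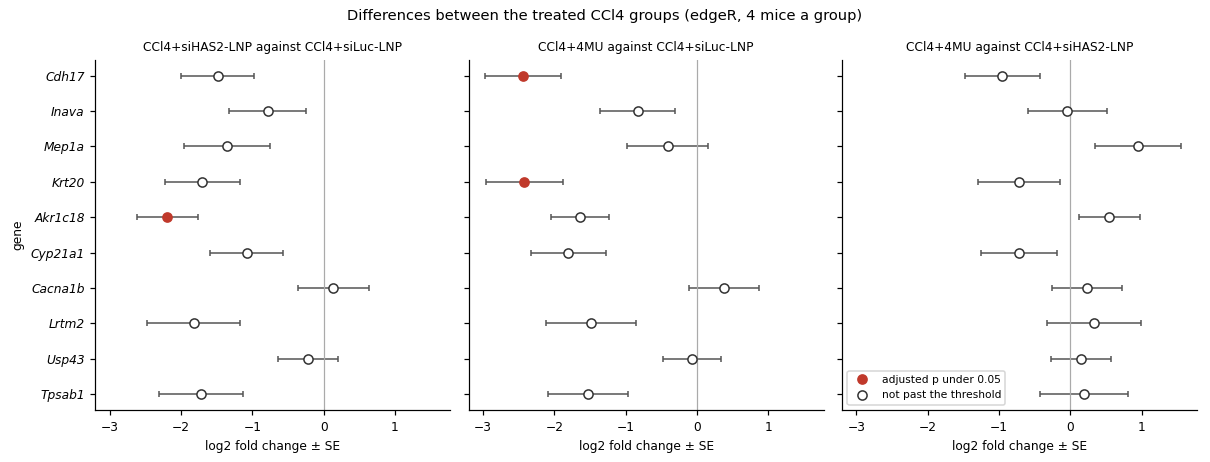
Log2 fold change ± SE (edgeR, 4 mice a group) of each gene between the 3 treated CCl4 groups, with filled points for an adjusted p under 0.05. Akr1c18 is filled on the left (-2.19), Cdh17 and Krt20 in the middle (-2.44 and -2.42), and no gene is filled on the right.

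Summed over the 10 genes, the 14 CCl4-treated mice ran from 9.60 to 66.5 CPM, and the 13 others from 0.0439 to 0.400. CCl4+siLuc-LNP mice 1, 3 and 4 stood highest (57.9, 66.5 and 55.2 CPM), and mouse 2 of that group at 25.0. Mice 1 and 3 were each the highest of the 14 for 4 genes. The CCl4+siHAS2-LNP mice held 34.1, 19.7, 10.6 and 9.60 CPM, and mice 3 and 4 were each the lowest for 3 genes, mouse 4 being the shallow library. The CCl4+4MU mice lay between 13.1 and 20.5 CPM, and the CCl4 mice at 35.6 and 33.6. The fold between the highest and the lowest of the 14 was 131 for Lrtm2, 46.9 for Tpsab1, 46.8 for Mep1a, 33.5 for Akr1c18, 31.2 for Cdh17, 29.9 for Krt20, 18.7 for Cyp21a1, 9.65 for Inava and 8.71 for Cacna1b.

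**Figure D3:**
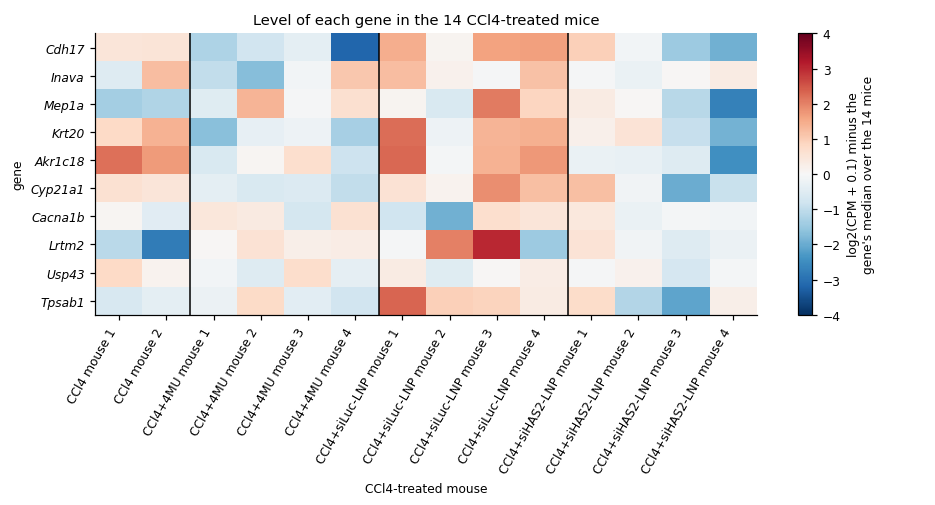
Colour gives log2(CPM + 0.1) of each gene (rows) in each of the 14 CCl4-treated mice (columns) minus the gene's median over them. Cdh17, Krt20, Akr1c18 and Cyp21a1 share red cells in CCl4+siLuc-LNP mice 1, 3 and 4 and blue cells in CCl4+4MU mouse 4 and CCl4+siHAS2-LNP mice 3 and 4, whereas Lrtm2 is darkest blue in CCl4 mouse 2 and darkest red in CCl4+siLuc-LNP mouse 3.

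The 10 genes did not vary as a block. Over the 14 CCl4-treated mice the 45 pairs had a median Spearman rho of 0.257, and 32 pairs were positive. The closest were Cdh17 with Cyp21a1 (0.947) and with Krt20 (0.908), Krt20 with Akr1c18 (0.895) and Cdh17 with Akr1c18 (0.811). With the group means removed these values were 0.736, 0.793, 0.851 and 0.727, so mice of the same group also differed in the same direction. Lrtm2 and Usp43 were the least alike (-0.385, or -0.0989 with group means removed). These are descriptions over 14 libraries that share 4 treatments, and no test was made.

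**Figure D4:**
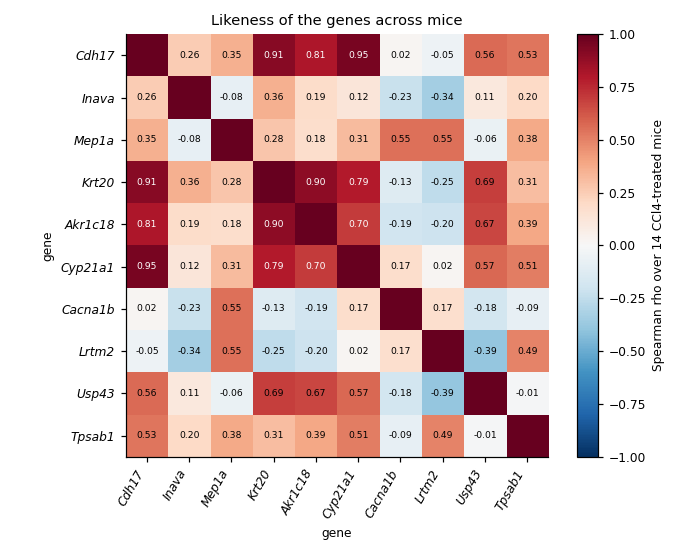
Spearman rho over the 14 CCl4-treated mice for each pair of the 10 genes, in colour and as a printed number. Cdh17, Krt20, Akr1c18 and Cyp21a1 form a dark red square with values from 0.701 to 0.947, and Cacna1b, Lrtm2 and Inava have pale or blue cells with them.

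Other genes were ranked by their Spearman rho with each of the 10 over the same 14 libraries, as a description. The 3 nearest to Cdh17 were Cdc25b (0.921), Plk1 (0.895) and Enoph1 (0.886), and Cdc25b (0.912) was also nearest to Cyp21a1, followed by Myzap (0.908) and Apoa4 (0.877). Nearest to Krt20 were Eif1ax and Spdl1 (0.925 each) and Pclaf (0.921), and to Akr1c18 Capn2 (0.947), Birc5 (0.938) and Mis18a (0.921). For Inava they were Ak6 (0.916), Cyp1b1 (0.837) and Mtmr11 (0.82), and for Mep1a Ptpn22 (0.943), Cpm (0.824) and Cdhr2 (0.807). Usp43 lay nearest to Zfp251 (0.89), Anapc4 (0.859) and Prc1 (0.851). Lrtm2 lay nearest to Fhit (0.947), Tpst2 (0.943) and Vtn (0.938), Cacna1b to Asns (0.833), Tef and Abcb1a (0.793 each), and Tpsab1 to Ankrd13a (0.785), Serpina3k (0.776) and Efnb1 (0.763).

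Lists of other markers were then read, for the usual tissues or the families of the 10 genes. Their values are given for the 3 comparisons of CCl4 within 4MU, siLuc-LNP and siHAS2-LNP, in this order. Of 30 other genes of intestinal epithelium, 12 were expressed enough to be tested, of which 8, 5 and 4 were called higher and 0 lower, with median log2 fold changes of 0.72, 0.09 and 0.34 against 0.00, -0.03 and 0.03 over all genes. Tff3, a secreted peptide of mucosa, rose in all 3 (4.05, 6.02 and 3.09), as did Cdhr2, a brush border cadherin (3.67, 5.48 and 3.14), and Apoa4, an apolipoprotein of gut and liver (1.5, 3.2 and 2.8). Without CCl4+4MU mouse 4, described below, only these 3 of the 8 were still called within 4MU, a setting chosen after the data were seen. Summed, the list stood at 951 to 1211 CPM without CCl4 and 1563 to 3988 with it. Between 94.7% and 99.6% of this sum came from 6 genes that control liver already held at 10 CPM or more, namely Apoa4, Krt8, Krt18, Anpep, Fabp2 and Cdhr5. The other 24 genes summed to 8.03 to 16.6 CPM without CCl4 and, leaving out that mouse (105.3 CPM), reached at most 29.4 with it. Of the list, 9 genes had at most 3 counts in all 27 libraries, among them the CDX factors Cdx1 and Cdx2 and the mature enterocyte enzyme Sis. The part of intestinal cells in the result was not tested.

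In 1 library, CCl4+4MU mouse 4, genes of gut and duct stood far above all other CCl4-treated mice. Of all list genes with at least 10 counts in their highest library, 8 were at least 10-fold above the next CCl4-treated library, all 8 in this mouse. They were Slc26a3, Olfm4, Vil1, Phgr1 and Spink4 from the intestinal list, Krt19 and Muc1 from the bile duct list, and S100b. Slc26a3, a chloride exchanger of the colon, had 976 counts there (34.7 CPM). In the same library Cdh17 was the lowest of the 14 CCl4-treated mice (0.960 CPM) and Krt20 had 7 counts. Without this mouse all 10 genes were still called higher by CCl4 within 4MU, and 0 were called between 4MU and siLuc-LNP.

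Of 21 other genes of steroid synthesis, 11 were tested, with 3, 2 and 1 called higher and 3, 3 and 4 lower, and median log2 fold changes of 0.11, -0.36 and -0.23. Hsd3b1, which makes progesterone, rose (3.33, 3.35 and 2.41). Prlr (-1.29, -1.47 and -1.07), Hsd11b1 (-0.94, -1.27 and -1.02) and Star (-1.14, -0.89 and -0.99) fell. Nr5a1, the gene of SF-1, and the adrenal enzyme Cyp11b1 were among the 5 genes with at most 3 counts everywhere. The sum of the list was 1607 to 2006 CPM without CCl4 and 658 to 1490 with it. Much of it came from genes that control liver already held, namely Hsd11b1 (control mean 960 CPM), Prlr (358) and Scarb1 (228). In the groups with CCl4 the means were 225 to 503 CPM for Hsd11b1, 79.8 to 179 for Prlr and 202 to 347 for Scarb1. Of the 8 other Akr1c genes 6 were tested, 0 called higher by edgeR and 4, 1 and 1 lower, among them Akr1c14 (-1.03, -0.50 and -0.56). Akr1c21 had at most 4 counts and Akr1cl 0. Reads that Akr1c18 shares with these relatives were not counted.

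Of 17 other subunits of voltage-gated calcium channels, 6 were tested: Cacnb3 was called higher with 4MU and with siLuc-LNP, and Cacna1d lower with 4MU. Without CCl4+4MU mouse 4, Cacnb3 was not called with 4MU. Cacna1a, the nearest relative of Cacna1b, was not called in any of the 3, and Cacna1e had at most 6 counts. Of 18 neuronal and glial markers, 5 were tested, 0 were called higher by edgeR and 1, 1 and 0 lower, and 10, such as Snap25 and Th, had at most 3 counts in all libraries. Their sum was 20.5 to 33.6 CPM without CCl4 and 14.7 to 25.2 with it. Of 16 ubiquitin-specific proteases tested beside Usp43, 1, 0 and 1 were called higher (Usp18) and 2, 0 and 0 lower, the 2 not called without that mouse.

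Of 17 other markers of mast cells and basophils, 4 were tested, with 1, 2 and 1 called higher and 0 lower. Hpgds, a prostaglandin synthase that other leukocytes also hold, rose in all 3 (1.80, 1.32 and 1.23). Kit, the receptor of stem cell factor, which other cells also hold, was called higher with siLuc-LNP (1.17, edgeR adjusted p = 0.0278). The 13 genes not tested had at most 21 counts in any library, the number of Cma1, with 18 for Mcpt8, 10 for Mcpt4, 8 for Cpa3, 7 for Ms4a2 and 4 for Fcer1a, and the mast cell proteases Mcpt1 and Mcpt2 were among the 5 genes with at most 3. The summed list was 4.78 to 9.54 CPM without CCl4 and 5.34 to 15.7 with it. The part of mast cells in the level of Tpsab1 was not tested.

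Some markers of duct cells, and the markers of dividing cells, were also higher with CCl4. Of 15 bile duct genes 12 were tested, and 7, 4 and 3 were called higher with 0 lower, among them Spp1 (2.16, 2.87 and 2.25). Without CCl4+4MU mouse 4, 2 of the 7 were still called within 4MU, Spp1 and Prom1. Krt19, Epcam, Muc1, Cldn7 and Cd24a were called neither within siLuc-LNP nor within siHAS2-LNP. The sum of the list was 63.6 to 112 CPM without CCl4 and 163 to 795 with it. Of this, Spp1 alone held 23.3 to 65.4 CPM without CCl4 and 103 to 677 with it. All 6 proliferation genes were called higher in each of the 3, and also within 4MU without that mouse. By the mean over the 3, Ccnb1 (7.63, 5.10 and 3.53) and Birc5 (4.91, 4.70 and 3.32) changed most. Their sum was 2.25 to 29.8 CPM without CCl4 and 47.0 to 585 with it. Over the 14 CCl4-treated mice, rho with the proliferation sum was 0.873 for Krt20, 0.837 for Akr1c18, 0.798 for Cdh17 and 0.705 for Usp43, and -0.503 for Lrtm2. With group means removed these were 0.631, 0.618, 0.701, 0.257 and -0.56. Lrtm2 instead had its highest values with the steroid sum (0.833, or 0.688 with group means removed) and the hepatocyte sum (0.793, or 0.899). With the intestinal sum, rho was 0.807 for Cyp21a1, 0.802 for Cdh17, 0.727 for Krt20 and 0.6 for Akr1c18. With group means removed these were 0.591, 0.38, 0.24 and 0.187. For Mep1a, rho with the intestinal sum was 0.341 (0.833 with group means removed), and for Cacna1b 0.275 (0.78). The part of duct cells and of dividing cells in these levels was not tested.

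Of the 10 hepatocyte genes, 0, 1 and 0 were called higher and 1, 2 and 1 lower, and Cyp2e1, the enzyme that activates CCl4, fell (-1.94, -3.29 and -1.91). No gene of the pancreas list (9 genes, 8 of them with at most 3 counts) or of the kidney list (7 genes, all 7 with at most 3) was expressed enough to be tested, so reads of these neighbouring organs were near 0. Among 9 overlapping or near-identical genes, 2 were tested and 0 called by edgeR.

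**Figure D5:**
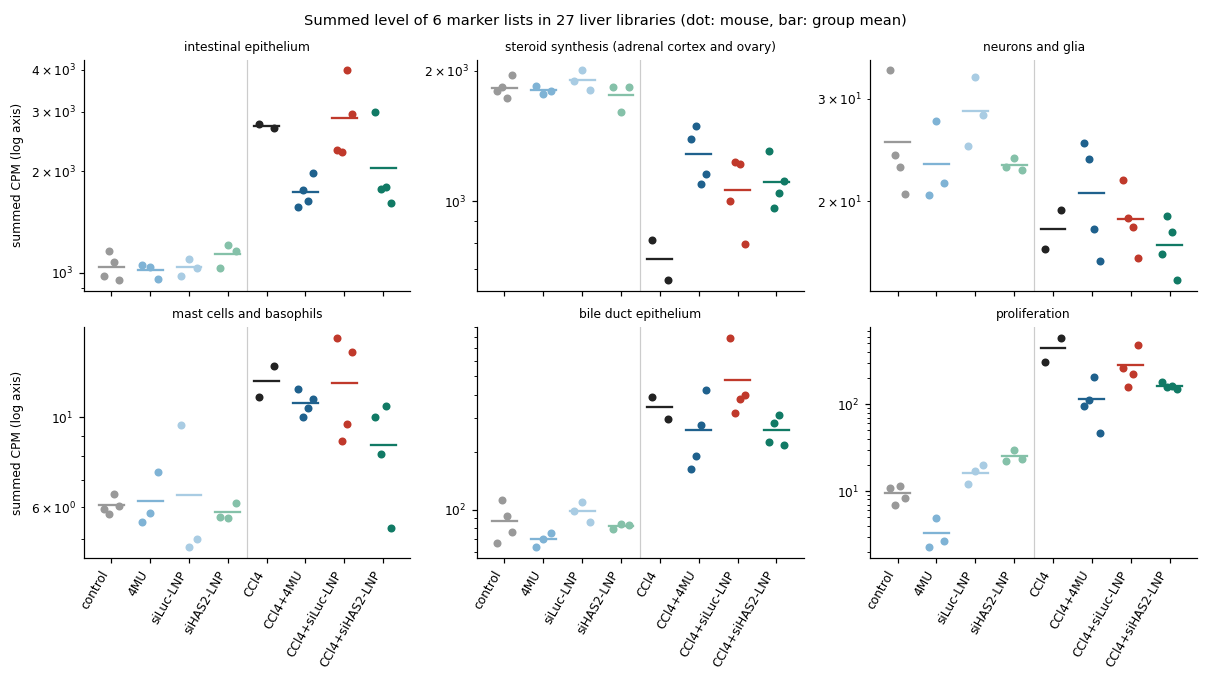
Summed CPM (log axis) of 6 marker lists in each of the 27 libraries, by group, without the 10 genes themselves, with dots for mice and bars for group means. The intestinal, bile duct and proliferation sums of all 14 CCl4-treated mice lie above all 13 others, and the steroid sum lies below. In the intestinal sum, 6 genes that control liver already expressed make up at least 94.7%. Spp1 is a large part of the bile duct sum, and Hsd11b1, Prlr and Scarb1 are a large part of the steroid sum. The sums of neurons and glia and of mast cells overlap.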

How the data were processed

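Total liver RNA of 27 mice was sequenced as paired-end polyA libraries made with a strand-specific kit. The deposited values are raw counts per gene, which the authors made with Trimmomatic 0.39, HISAT2 (GRCm39, annotation of Ensembl 105) and featureCounts, with multi-mapping reads left out. The strand setting is not stated, so reads from overlapping genes on opposite strands cannot be told apart. The members and lists were chosen with earlier results of these data known.

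Gene positions came from GENCODE vM39, which matched 54749 of 55414 genes. The 14114 genes whose mean count was 10 or more were tested in R 4.3.3 with edgeR 4.0.16 (TMM, all 8 groups in 1 fit, quasi-likelihood test, Benjamini-Hochberg threshold 0.05), which was also tested on simulated data. CPM used TMM-scaled totals. Alternatives used DESeq2 1.42.0, limma 3.58.1, other filters, fewer groups, a replicate block and leaving out each mouse. Figures were drawn with Python 3.11.15 and matplotlib 3.10.9. Named were all 10 genes, the 3 genes most like each, up to 4 genes per list called in the same direction in all 3 CCl4 comparisons, up to 3 list genes at the floor, and paralogs. Mice were the replicates, and p-values measure the spread between these mice.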

Additional observations from a re-analysis of the deposited data

How the results depend on the processing

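The counts of the 10 genes called higher with CCl4 were stable in the pooled comparison and within 4MU and within siLuc-LNP, with 10 of 10 under 7 other settings and without each of 21, 7 and 7 libraries. Within siHAS2-LNP the count was 10 under the 7 settings and 8 to 10 without 1 library. All of these counts carry the limit of the filter described above. Between CCl4+siHAS2-LNP and CCl4+siLuc-LNP, 1 gene was called, against 5 without a low-count filter, 0 with only these groups in the fit, 0 with the replicate block, 0 with limma-voom and 0 to 2 without 1 library (2 without CCl4+siHAS2-LNP mouse 1). Akr1c18 had adjusted p = 0.15 with only these groups and 0.0821 with limma-voom. Between CCl4+4MU and CCl4+siLuc-LNP, 2 were called, against 4 with DESeq2, 5 without a filter, 0 with only these groups, 0 with the replicate block and 0 to 4 without 1 library. DESeq2 added Akr1c18 (-1.68, adjusted p = 0.0188) and Cyp21a1 (-1.84, 0.0384). Between CCl4+4MU and CCl4+siHAS2-LNP, 0 were called, against 1 without a filter (Cdh17, -0.94, adjusted p = 0.0295). The cause was not tested. Without CCl4+4MU mouse 4, a setting added after seeing the data, the intestinal list had 3 genes called higher within 4MU in place of 8, the bile duct list 2 in place of 7, and the calcium channel list 0 in place of 1.

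The replicate numbers did not pair the mice. Over 21 pairs of same-numbered mice in 6 comparisons, the correlation ran from -0.318 to 0.185, with 2 above 0.1. With the replicate block Akr1c18 had adjusted p = 0.0503 between siHAS2-LNP and siLuc-LNP, and Cdh17 and Krt20 had 0.0535 and 0.0793 between 4MU and siLuc-LNP, all with CCl4.

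Over all genes, the calls between CCl4+siHAS2-LNP and CCl4+siLuc-LNP were 154 (0 to 656 under other settings, 4 to 230 without 1 library). Between CCl4+4MU and CCl4+siLuc-LNP they were 88 (9 to 1042, and 10 to 927), and between CCl4+4MU and CCl4+siHAS2-LNP 172 (108 to 1024, and 13 to 390). For the interactions they were 5 (0 to 304, and 0 to 26) with siHAS2-LNP and 7 (0 to 360, and 0 to 41) with 4MU. Within siLuc-LNP they were 3418 (1504 to 3727, and 2387 to 3703), within siHAS2-LNP 1812 (1538 to 3455, and 1026 to 1758) and within 4MU 3349 (2880 to 4794, and 2138 to 3156).

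Some values changed sign, none of them past the threshold, and an interaction with a group that had no reads is not determined. In the interaction with 4MU, Cdh17 turned to -0.40 with DESeq2 and -1.78 with limma-voom, and Mep1a to 0.065 and Cacna1b to 0.40 with limma-voom. In that with siHAS2-LNP, Cdh17 turned to -1.30 with limma-voom. Without 1 library, the log2 fold changes in the interaction with 4MU ran from -2.44 to 1.01 for Cdh17, -1.91 to 0.38 for Cacna1b, -4.19 to 0.52 for Lrtm2 and -0.87 to 0.27 for Mep1a, and in that with siHAS2-LNP from -1.49 to 1.97 for Cdh17 and -0.23 to 0.46 for Cacna1b. With CCl4, 4MU against siLuc-LNP ran from -0.87 to 0.27 for Mep1a and -0.44 to 0.050 for Usp43, and siHAS2-LNP against siLuc-LNP from -0.23 to 0.46 for Cacna1b. There 4MU against siHAS2-LNP ran from -1.09 to 0.22 for Cyp21a1, -0.84 to 0.26 for Inava, -0.25 to 1.15 for Tpsab1 and -0.22 to 0.30 for Usp43. Depth limits all values of a few reads, above all in CCl4+siHAS2-LNP mouse 4.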
